A study of Mus musculus with 2 samples.

Results

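The 10 microRNA genes described here are a list of genes linked to microglia, white blood cells and red blood cells. They were taken by symbol from the GENCODE M21 annotation, 10 of the 2202 miRNA genes that the deposited tables list. The microglia and leukocyte group has 7 genes (Mir142, Mir146, Mir146b, Mir150, Mir155, Mir223 and Mir342) and the red cell group has 3 (Mir144, Mir451a and Mir486). Mir146 is the annotation's name for the mir-146a gene. Both libraries came from hippocampal tissue of male B6CASTF1/J mice, a cross supplied by The Jackson Laboratory, at 18 to 20 months of age. There was 1 group with 2 libraries, called replicates 1 and 2 in the labels, and no treatment, genotype or age was compared. Each library has its own tissue record in the labels, but the donor record is the same for both and separate animals are not stated. SDs below therefore measure only how these samples differ, which may be technical. P-values set each difference between the libraries against counting error alone and take in no spread between samples.

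MicroRNAs are short RNAs cut from hairpins, and each lowers the output of messenger RNAs that pair with its seed, the stretch from base 2 to base 8. Microglia are the resident macrophages of the brain, and they share much of their microRNA repertoire with circulating white cells. Several microRNAs of these cells act in inflammatory signalling: miR-155 is induced by it, and miR-146a is induced by the transcription factor NF-kB and restrains the adaptor proteins upstream of it. Developing red cells depend on a different pair, miR-144 and miR-451a, which are cut from a shared transcript.

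The mature products that give each gene its identity are shown first, because the tables count reads per hairpin gene and do not separate the arms. RefSeq sequences (GRCm38.p6) were matched by symbol for 9 of the 10 genes, with 16 mature sequences of 20 to 23 nt. Mir486 had no entry there, and Mir150 had the 3p arm only. Capitals mark the seed, and the arm shown is the one usually described as the active product.
miR-142a-3p: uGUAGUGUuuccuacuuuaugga
miR-146a-5p: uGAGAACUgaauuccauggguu
miR-146b-5p: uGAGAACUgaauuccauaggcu
miR-155-5p: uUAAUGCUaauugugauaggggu
miR-223-3p: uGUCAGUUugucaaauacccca
miR-342-3p: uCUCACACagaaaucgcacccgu
miR-144-3p: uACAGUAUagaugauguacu
miR-451a: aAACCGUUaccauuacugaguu
The 16 sequences hold 15 distinct seeds. The only seed held in common is that of miR-146a-5p and miR-146b-5p, and no other seed of the 16 occurs in any further mature sequence among the 1738 in the table.

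Levels ranged widely within the leukocyte group, where Mir342, Mir150, Mir146 and Mir142 lay above the median of detected genes (102 CPM) and Mir155, Mir223 and Mir146b below it. All 3 red cell genes lay below that median, though above Mir223 and Mir146b in mean level. The 7 leukocyte genes summed to 3748 counts per 1000000 sense counts (CPM) in replicate 1 and 3446 CPM in replicate 2, a mean of 3597 ± 214 CPM (SD, n = 2). That is 0.375% (95% Clopper-Pearson interval 0.369 to 0.381%) and 0.345% (0.340 to 0.349%) of the counted reads. The 3 red cell genes had a sum of 63.3 CPM in replicate 1 and 95.7 CPM in replicate 2, a mean of 79.5 ± 22.9 CPM (SD, n = 2). Counting intervals were drawn from 3758318 sense counts in replicate 1 and 5598792 in replicate 2, a depth ratio of 1.49. They reflect counting error alone, because reads that carry no molecular identifier are not independent molecules. In whole tissue, fewer cells of a type and less RNA per cell cannot be told apart. Which cells made each RNA is not shown by the counts either.

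**Figure D1:**
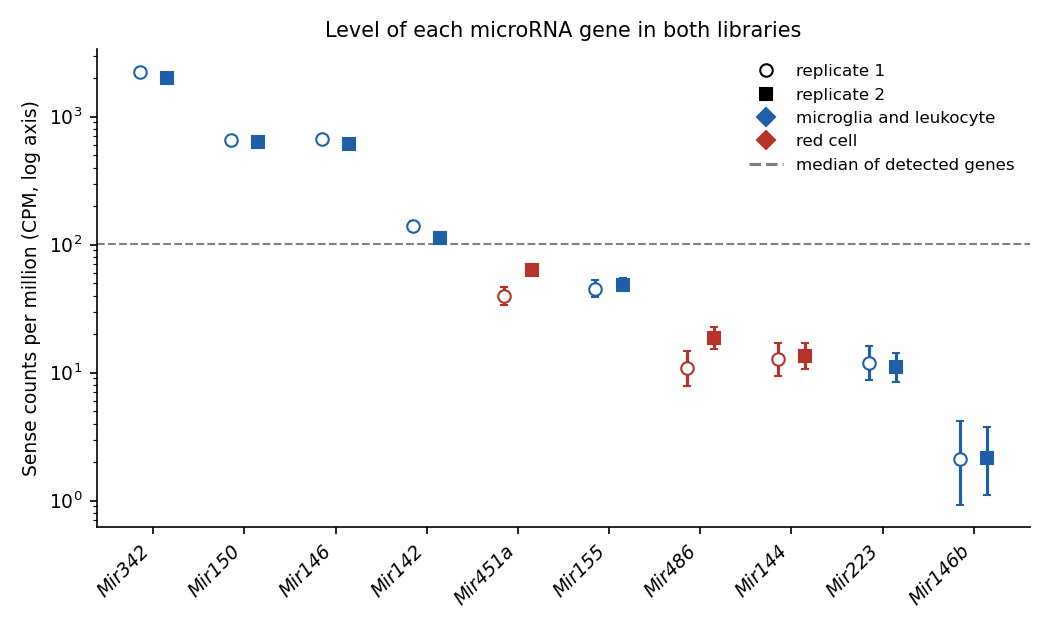
Sense CPM (log axis) of the 10 genes in replicate 1 (open circles) and replicate 2 (filled squares), with 95% Clopper-Pearson intervals and colour by group. The 4 highest genes, all of the leukocyte group, lie above the dashed median of detected genes (102 CPM), and Mir451a and Mir486 show the widest gaps between libraries.

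At a limit of 10 counts in both libraries, 9 of the 10 genes were detected. Over all 2202 genes, 384 (17.4%) passed that limit and 1450 had no count in either library. The remaining gene, Mir146b, had 8 and 12 counts. Levels of different genes were compared in CPM without division by length, since a read covers a whole small RNA and the mature sequences have nearly the same length. How well each small RNA is captured by library preparation can differ between sequences and was not measured.

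Mir342 was the most abundant of the 10 genes, at 2224 CPM in replicate 1 and 2018 CPM in replicate 2 (2121 ± 145 CPM). It ranked 65th of all miRNA genes by mean level. The gene (ENSMUSG00000065436.1, plus strand) lies in an intron of Evl, which codes for a regulator of actin filaments, on chromosome 12 from 108658620 to 108658718 (mm10). It held 59.3% (58.5 to 60.2%) of the leukocyte group's counts in replicate 1 and 58.6% (57.9 to 59.3%) in replicate 2, so the group's sum is mainly the level of this gene. The genes nearest to it in level over both libraries were Mir29c, at 2481 and 2167 CPM, and Mir598, at 2743 and 2085 CPM.

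Mir150, a microRNA of mature lymphocytes, had 659 CPM in replicate 1 and 637 CPM in replicate 2. Mir146, the mir-146a gene, had 665 and 615 CPM. The ranges of these neighbours overlapped, and their order was opposite in the libraries, so neither can be placed above the other. Their ranks by mean level were 108 and 109. Mir150 (ENSMUSG00000065495.1, plus strand) lies on chromosome 7 from 45121757 to 45121821 and Mir146 (ENSMUSG00000065601.1, minus strand) on chromosome 11 from 43374397 to 43374461, and neither overlaps an annotated gene.

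Mir142, which is made throughout the blood lineages and in microglia, had 140 CPM in replicate 1 and 113 CPM in replicate 2, or 127 ± 19.1 CPM. These are 527 and 634 counts. Its mean was 5.05 times below that of Mir146 and still above the median of detected genes. The gene (ENSMUSG00000105196.1, plus strand) lies in an intron of the non-coding host gene Mir142hg on chromosome 11, from 87756864 to 87756927.

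Mir155, induced in activated macrophages and lymphocytes, had 45.2 CPM in replicate 1 and 48.8 CPM in replicate 2, from 170 and 273 counts. It lies in an exon of its host transcript Mir155hg on chromosome 16, from 84714140 to 84714204 (ENSMUSG00000065397.1, plus strand). Mir223, a microRNA of neutrophils and monocytes, had 12.0 and 11.1 CPM, from 45 and 62 counts. It lies in an exon of F630028O10Rik on the X chromosome, from 96242817 to 96242926 (ENSMUSG00000076066.1, plus strand). Both were below the median of detected genes in both libraries. Mir223 ranked 301st, with 21.6% of detected genes below it.

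Mir146b was the lowest of the 10, at 2.13 CPM (interval 0.919 to 4.19 CPM) in replicate 1 and 2.14 CPM (1.11 to 3.74 CPM) in replicate 2. It lies in an intron of Mfsd13a on chromosome 19, from 46342762 to 46342870 (ENSMUSG00000070127.2, plus strand). Of the counts of Mir146 and Mir146b together, Mir146b held 0.319% (0.138 to 0.628%) and 0.347% (0.180 to 0.606%). Mir146 was thus 312 and 287 times higher. The 5p products of this pair share their seed and their first 17 bases and differ at 2 of 22 positions, in capitals below.
miR-146a-5p: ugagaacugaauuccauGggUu
miR-146b-5p: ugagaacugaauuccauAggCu
Counted from the 5′ end of miR-146a-5p, the substitutions are G18A and U21C. The hairpins share a stretch of 21 nt, so a read that ended before base 18 could fit both genes, and a read that fits several places enters no gene.

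**Figure D2:**
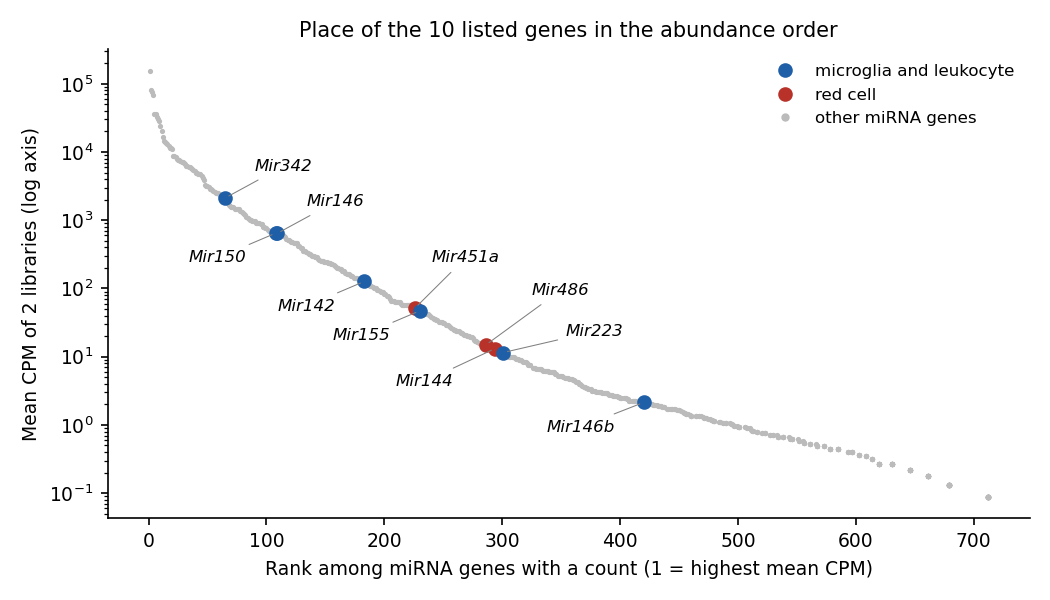
Mean CPM of the 2 libraries (log axis) against rank for all miRNA genes with a count (grey), with the 10 genes named and coloured by group. Mir342 stands at rank 65, the 3 red cell genes fall between ranks 226 and 294, and Mir146b stands at rank 420.

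Among the red cell genes, Mir451a was the highest, at 39.6 CPM in replicate 1 and 63.4 CPM in replicate 2 (51.5 ± 16.8 CPM), from 149 and 355 counts. Its range overlapped that of Mir155, the next in order. The genes nearest to it in counted level over both libraries were Mir184, at 39.6 and 59.3 CPM, and Mir29b-1, at 37.3 and 61.4 CPM. Mir29b-1 is a numbered copy, and a read that also fits another copy enters no gene, so its level could be too low. Mir144 had 12.8 CPM in replicate 1 and 13.6 CPM in replicate 2, from 48 and 76 counts. Mir144 lies on chromosome 11 from 78073005 to 78073070 (ENSMUSG00000065401.1) and Mir451a from 78073170 to 78073241 (ENSMUSG00000070065.1), both on the plus strand and 99 bases apart, with no other gene annotated over Mir144. Mir451a held 75.6% (69.0 to 81.5%) of the pair's counts in replicate 1 and 82.4% (78.4 to 85.8%) in replicate 2. The unequal reading of the pair was thus seen in both libraries, and the intervals of its share overlapped.

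The mature miR-451a is unlike the others in its place on the hairpin. It spans bases 17 to 38 of a hairpin of 72 bases and so runs into the loop, and RefSeq lists 1 product for it against 2 for the 7 other genes whose hairpin was matched. It is known to be cut by Argonaute-2 and not by Dicer. The annotation also places Mir451b on the minus strand over exactly the same bases, so that its hairpin is the reverse complement of that of Mir451a. The pair is shown because it decides how reads are assigned, and capitals mark the mature sequences.
Mir451a, chr11:78073170-78073241, plus strand: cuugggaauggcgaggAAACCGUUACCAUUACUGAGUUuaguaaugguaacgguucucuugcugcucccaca
Mir451b, chr11:78073170-78073241, minus strand: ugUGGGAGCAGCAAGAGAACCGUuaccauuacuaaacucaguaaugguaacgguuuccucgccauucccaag
Read in their own sense, these hairpins share 16 nt at most, which is shorter than the 22 bases of miR-451a. Mir451b had no sense count in either library, a result that still permits 0.798 CPM in replicate 1 and 0.536 CPM in replicate 2 (3 counts).

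Mir486, found in red cells and in muscle, had 10.9 CPM in replicate 1 and 18.8 CPM in replicate 2, from 41 and 105 counts. It lies in an intron of Ank1, the gene of the red cell membrane protein ankyrin, on chromosome 8 from 23142555 to 23142682 (ENSMUSG00000070084.3, plus strand), where the antisense gene Gm15816 also spans it on the minus strand. Mir3107 is annotated inside it on the opposite strand and had 5 and 4 sense counts. The longest stretch that the hairpin of Mir486 shares with that of Mir3107 is 22 nt. The hairpin of Mir486 also contains a stretch of 22 nt whose reverse complement stands in the same hairpin. A read that lay wholly within that stretch would fit both strands of the locus. A read that fits several places enters no gene. How many reads did so is not known, so the level of Mir486 is uncertain and could be too low. Without Mir486, a setting added after its values were seen, the red cell sum was 52.4 CPM in replicate 1 and 77.0 CPM in replicate 2. Of all reads, 51.5% in replicate 1 and 46.7% in replicate 2 mapped to several places.

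In the order of mean levels, Mir150 and Mir146, Mir451a and Mir155, and Mir486 and Mir144 were neighbours whose ranges over the libraries overlapped. Mir144 and Mir223 had ranges that did not overlap, but their counting intervals did, at 9.42 to 16.9 CPM against 8.73 to 16.0 CPM in replicate 1. For the other 5 neighbouring pairs the ranges did not overlap, and the higher mean was between 2.46 and 5.40 times the lower. These orders are descriptions of the libraries, and no test over samples was run for them.

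Strand decided the counts of 3 of the 10 genes. Mir142, Mir451a and Mir486 each have an annotated partner on the opposite strand (Mir142b, Mir451b and Mir3107), and each had 0 counts in the unstranded column of both libraries. That column alone lists ambiguous reads, 287630 in replicate 1 and 425131 in replicate 2. On the sense strand the same genes had 527, 149 and 41 counts in replicate 1 and 634, 355 and 105 in replicate 2. Mir142b, like Mir451b, had no sense count in either library. The other 7 genes had the same counts in the unstranded and sense columns, apart from 1 further read of Mir150 in replicate 2. With unstranded counts the red cell sum was 14.3 CPM, all of it from Mir144, and the leukocyte sum was 3756 CPM.

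**Figure D3:**
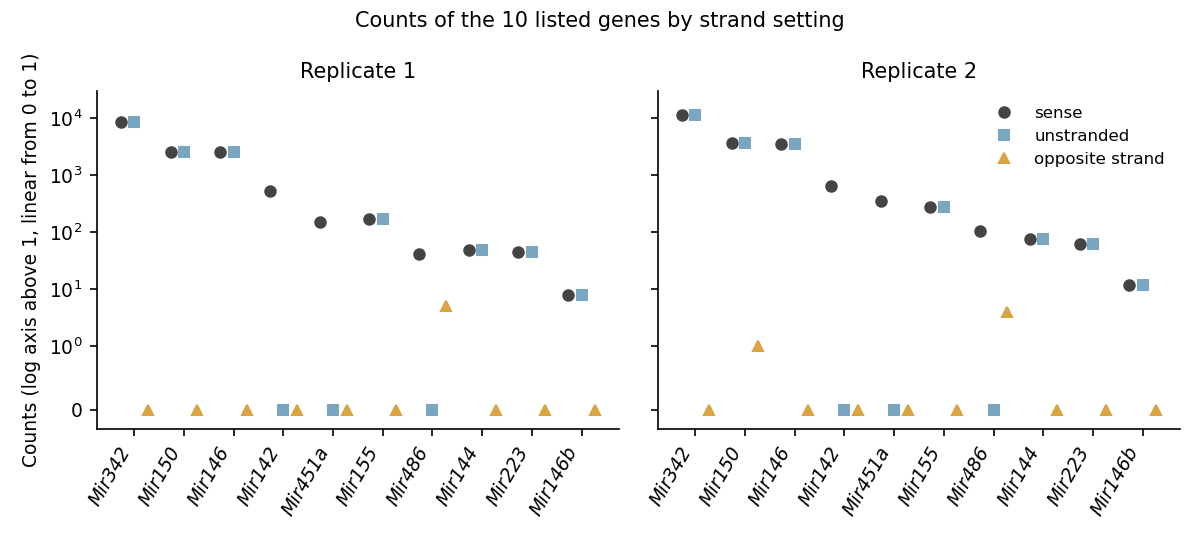
Counts of the 10 genes in the sense, unstranded and opposite-strand columns of each library (log axis above 1, linear from 0 to 1). The unstranded points of Mir142, Mir451a and Mir486 lie at 0 in both libraries while their sense points lie between 41 and 634 counts.

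The libraries differed in the balance of the gene groups. Red cell genes held 1.66% (1.46 to 1.88%) of the 14323 counts of both groups in replicate 1 and 2.70% (2.48 to 2.94%) of the 19828 in replicate 2. In this ratio library scaling cancels. There were 59.2 leukocyte counts for each red cell count in replicate 1 and 36.0 in replicate 2. The groups' sums in CPM moved in opposite directions, by 1.09-fold (leukocyte genes, higher in replicate 1) and by 1.51-fold (red cell genes, higher in replicate 2). Within the red cell group, Mir451a held 62.6% of the counts in replicate 1 and 66.2% in replicate 2, and Mir486 held 17.2 and 19.6%. Mir144 held 20.2 and 14.2%, with near-equal CPM in the libraries, so the change of the sum is not that of every member. Without Mir486 the ratio of red cell to leukocyte counts was 0.0140 in replicate 1 and 0.0223 in replicate 2. Within the leukocyte group the shares were close, at 17.6 and 18.5% for Mir150, 17.7 and 17.8% for Mir146 and 3.74 and 3.29% for Mir142.

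Counts of each detected gene were then compared between the libraries by a two-sided exact binomial test, with library sizes scaled by TMM and Benjamini-Hochberg adjustment over the 384 detected genes. The test compares these libraries and not conditions, and it allows for counting error alone. Spread between the libraries beyond that error, as the common coefficient of variation from edgeR, was 34.4% and is not part of the test. Of all detected genes 65.1% were called, and 5 of the 9 detected genes of the groups were called, so the share of the groups was not above that background. Mir342, Mir150, Mir146 and Mir142 were called higher in replicate 1, a direction in which 34.1% of all detected genes were called. Mir451a was called higher in replicate 2, as were 31.0% of all detected genes.

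Mir142 had the largest of these differences, at a log2 ratio of replicate 1 over replicate 2 of 0.63 (1.54-fold, adjusted p = 1.13e-12 by the exact binomial test). Mir342 was 1.37-fold higher in replicate 1 (adjusted p = 6.46e-104 by the same exact test), Mir146 1.35-fold and Mir150 1.29-fold. Mir451a was 1.28-fold higher in replicate 2 (adjusted p = 0.0164, exact binomial test). These sizes lie near the median absolute difference of all detected genes, which was 1.36-fold, and below the steps of 2.46 to 5.40 times between the separated neighbours in the order of levels. Mir486 had a log2 ratio of -0.46 (adjusted p = 0.118, exact binomial test), Mir223 of 0.43 (0.176), Mir155 of 0.21 (0.197) and Mir144 of 0.23 (0.468), and none of these passed.

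The TMM and total-count scales differ by a factor of 1.25, and the calls of some genes depend on it. On total counts the median log2 ratio of all detected genes moved from 0.01 to -0.31, and 70.6% of them were called, with 28.0% of the calls higher in replicate 1 against 52.4% on the TMM scale. Of the 9 genes, 3 were then called higher in replicate 1, against 19.8% of all detected genes, and 2 higher in replicate 2, against 50.8%. On total counts Mir150 was not called (1.03-fold, adjusted p = 0.243, exact binomial test), Mir486 was called higher in replicate 2 (1.72-fold, adjusted p = 0.00485, exact binomial test), and Mir155 and Mir144 changed sign. Mir451a, at 1.60-fold, stayed higher in replicate 2, and Mir342, Mir146 and Mir142 stayed higher in replicate 1, at 1.10-fold, 1.08-fold and 1.24-fold.

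**Figure D4:**
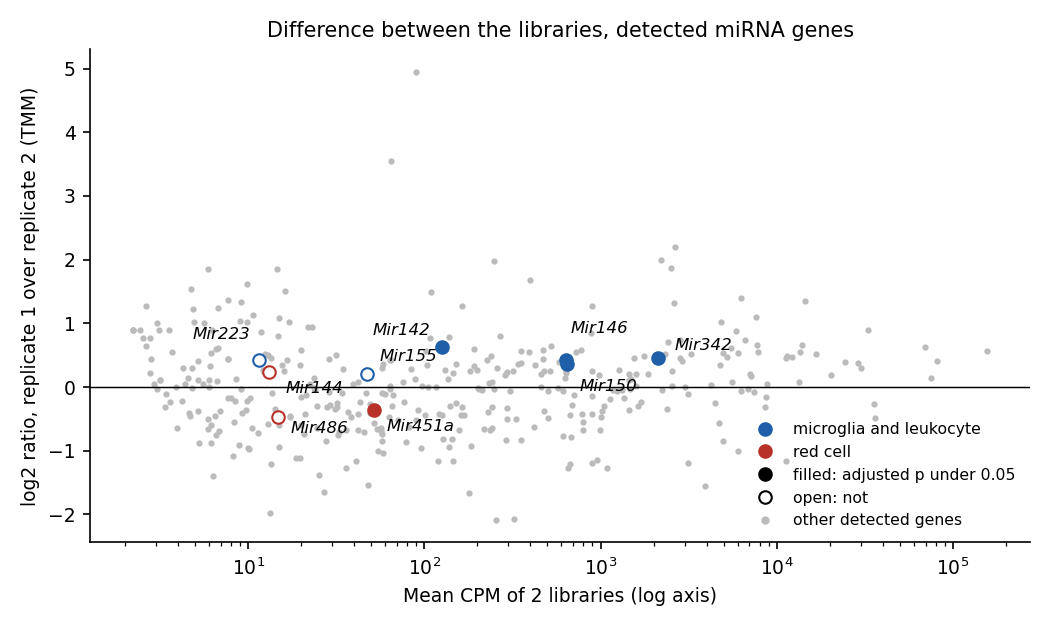
The log2 ratio of replicate 1 over replicate 2 on the TMM scale against mean CPM (log axis) for the 384 detected genes, with the 9 detected genes of the groups named and filled where the adjusted p was under 0.05. Mir142 is the highest of the 9 at 0.63 and Mir486 the lowest at -0.46, both inside the spread of the other genes.

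Markers of other cells moved between the libraries as well, on the same CPM scale. From replicate 1 to replicate 2, the sum of the oligodendrocyte markers (2 of 3 detected) went from 6092 to 9710 CPM, but on the TMM scale its 2 detected markers were called in opposite directions, and the median marker went from 3007 to 2815 CPM. In the same order of libraries, Mir122, the liver marker, went from 23.9 to 47.5 CPM and the muscle markers (1 of 5 detected, Mir206, with Mir1a-1, Mir1a-2, Mir133a-1 and Mir133a-2 at 0) from 52.2 to 79.7 CPM. The muscle markers at 0 are numbered copies of the same microRNAs. A read that fits both copies enters no gene, so a 0 there need not mean absence. The endothelial and mural markers (3 of 3 detected) went from 22045 to 16510 CPM. The neuron markers (10 of 14 detected, Mir124a-3 at 0 in both libraries) summed to 51391 and 52874 CPM and the astrocyte markers (4 of 4 detected) to 25505 and 25271 CPM. These near-equal sums hold differences of both signs. Most neuron markers, Mir124a-3 among them, are also numbered copies of the same microRNA. Their sum leaves out reads that fit several copies, and the 0 of Mir124a-3 need not mean absence. On the TMM scale all 10 detected neuron markers were called, 7 of them higher in replicate 1, and all 4 astrocyte markers, 3 of them higher in replicate 1, and the median astrocyte marker went from 2978 to 1951 CPM. The part of these marker changes and of depth in the differences of the leukocyte and red cell genes was not tested.

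Other microRNAs linked to immune cells or to blood were set beside the 10 genes. Of 19 further immune-linked genes 17 were detected, with a median of 723 CPM over all 19, led by Mir132 at 16652 ± 1642 CPM, Mir125a at 11253 ± 7537 CPM and Mir221 at 8848 ± 1134 CPM. On the TMM scale 14 of the 17 were called (65.1% over all detected genes), and 9 of these were higher in replicate 1 (34.1% over all detected genes). Of 19 further genes described in red cells and platelets 18 matched a symbol (Mir92a-1 did not) and 16 were detected, with a median of 157 CPM over the 18, led by Mir191 at 13833 ± 2282 CPM, Mir126a at 11290 ± 797 CPM and Mir107 at 3259 ± 310 CPM. On that scale 12 of the 16 were called, 6 in each direction, beside 65.1% over all detected genes, with 34.1% higher in replicate 1 and 31.0% in replicate 2. Nothing particular to either list is read from these counts. Several of these genes are best known from other cells, such as Mir132 from neurons and Mir126a from endothelium. Both lists also hold numbered copies of the same microRNA, and reads that fit several copies enter no gene. Over all 7 leukocyte genes the median was 127 CPM and over the 3 red cell genes 14.8 CPM.

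The hairpins of the 10 genes differed in place and composition. They lie on 7 chromosomes, 4 of them on chromosome 11, which carries 6.22% of all miRNA genes. Median GC content was 48.6% against 51.3% over detected genes, and median hairpin length was 69 against 83 bases. Only Mir146, Mir146b and Mir486 share at least 20 nt with another annotated hairpin, as do 22.4% of detected genes and 49.2% of all 2202, and the other 7 share at most 16 nt.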

How the data were processed

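MicroRNA sequencing of total RNA (size range under 30, per the labels) gave 1 deposited table for each of 2 hippocampal libraries. The deposited values are raw read counts per miRNA gene, made by the authors on mm10 with GENCODE M21, per the text files deposited beside the tables. Which aligner and counter were used is not given in the sources used here. Columns hold unstranded, sense and opposite-strand counts. No source used here names the strands, and the stranded column with the larger total was taken as sense. The 4 summary lines, 64.5% and 65.3% of reads, stayed out of library sizes and tests.

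Levels are CPM, scaled to 1000000 by the sum of the sense column over the 2202 miRNA genes. Detection required 10 counts in both libraries. Intervals are 95% Clopper-Pearson intervals, and a count of 0 allows 3 counts. TMM factors came from edgeR 4.0.16 and alternative size factors from DESeq2 1.42.0 (R 4.3.3). The exact two-sided binomial test (SciPy 1.17.1) used Benjamini-Hochberg adjustment at 0.05 over all detected genes. It was tried on simulated counts that held counting error only, so that trial cannot show how it behaves under wider spread. With 1 group, edgeR's quasi-likelihood test has no contrast to fit. Seeds, mature sequences and the hairpins printed are from RefSeq (GRCm38.p6), and shared stretches are between GENCODE M21 transcripts. The longest stretch shared was sought in the sense of each transcript.

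The 10 genes, the other lists and the cell markers were chosen with earlier results of these data known. Genes named by rule are the 10, the miRNA genes overlapping them, those within 10 kb on their strand, the 3 highest of each further list, the 2 nearest in log2(CPM + 1) to the highest of each group, and detected genes that share a seed. Host genes, unmatched names and the markers Mir122, Mir206 and those at 0 are named outside that rule, the markers after their values were seen. Alternatives were other count columns, denominators, scalings, detection limits, a chi-square test and each replicate left out. Leaving out Mir486 was added after the data were seen.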

Additional observations from a re-analysis of the deposited data

Results flagged for a closer look

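The opposite-strand column, which the levels above do not use, held counts at Mir486 above the 3 that a count of 0 allows, with 5 in replicate 1 and 4 in replicate 2. They equal the sense counts of Mir3107, which lies inside Mir486 on the other strand. The other 9 genes had no opposite-strand count, except Mir150 with 1 in replicate 2.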

How the results depend on the processing

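The sums depend on the denominator and the strand. The leukocyte sum was 1263 CPM over all reads, 5757 CPM without let-7 genes in the denominator and 1.18 CPM on the opposite strand. The red cell sum was 27.8, 127 and 13.4 CPM under the same settings and 14.3 CPM with unstranded counts. With unstranded counts the ratio of red cell to leukocyte genes fell to 0.00381 from 0.0223. In that setting 3 of 6 tested genes of the groups were called, beside 228 of 358 over all genes tested. In the main setting 5 of 9 were called, beside 250 of 384. Leaving out each replicate gave 3446 to 3748 CPM, 63.3 to 95.7 CPM and ratios of 0.0169 to 0.0278, with 9 to 10 of the 10 genes detected. Without Mir486, added after the data were seen, the red cell sum was 64.7 CPM and the ratio 0.0182. On total counts the log2 ratios of Mir155 and Mir144 turned to -0.11 and -0.088. The genes called numbered 228 to 271 under the alternatives, against 250 of 384, but the alternatives did not all test the same genes. The calls were 271 of 384 on total counts and 228 of 358 with unstranded counts. They were 244 of 336 at a limit of 20 counts, 252 of 439 at 5 counts and 266 of 752 without a filter. Of 60 alternative values of single genes' differences, 56 kept their direction and side of the threshold. Mir142, Mir451a and Mir486, with 0 unstranded counts, had no difference under that setting and are not in this tally for it. Of 70 alternative values of single genes' levels, 40 moved from the main mean by at least its SD. No difference between libraries can be had without a replicate, and the ratio had no value on the opposite strand. No paired analysis was possible because there is 1 group.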
